A study of Mus musculus with 12 samples.

Results

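The mitochondrial ribosomal protein genes were followed through the differentiation of mouse ES cells, with and without 2 chemical agents. They were taken as every gene whose symbol on the array platform is Mrpl or Mrps with a number and at most 1 further letter, which gave 76 genes of the 13067 genes tested. The probe set that was brightest on average over the 12 arrays stood for each gene, and all 76 passed the filter on low values, which kept the brightest 60% of probe sets. By subunit, 49 genes encode proteins of the large subunit, among them Mrps18a and Mrps30 in spite of their symbols, and 26 encode proteins of the small subunit. Mrps36, whose product is a component of the 2-oxoglutarate dehydrogenase complex, was kept apart. Mrpl30 and Mrpl53 were on probe sets shared with another gene and were not analysed here.

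The arrays fall in 4 groups of 3, BPA day8, NP day8, control day8 and control day0. All came from ES cells of the D3 line, a single embryonic stem cell line, which had been grown over mouse embryonic fibroblasts treated with MMC. The day8 cells had been differentiated as embryoid bodies, which are floating clumps where germ layer tissues begin to form; BPA day8 and NP day8 had received the agent of that name, and both control groups had received none. The labels give the day but no dose, do not spell out BPA or NP, and do not say whether the arrays of a group came from separate cultures, so the p-values cover the spread among these arrays and nothing beyond it.

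The mitochondrial ribosome translates the few messenger RNAs that are transcribed from the mitochondrial genome, all of which encode subunits of the respiratory chain and the ATP synthase. Its RNAs come from mitochondrial DNA, but its proteins are encoded in the nucleus, made in the cytosol and imported. Some of them descend from proteins of the bacterial ribosome, and others are found in mitochondria alone. Pluripotent stem cells draw heavily on glycolysis, and their mitochondria mature as they differentiate.

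Values are log2 signals, so a difference of 1 is a doubling, and errors of differences are standard errors from a linear model with 3 arrays per group. A gene is called higher or lower where its Benjamini-Hochberg adjusted p over all genes tested, from the moderated test of limma, is under 0.05. No member came near the background of the arrays: the lowest of all member values was 6.12, against a highest value of 3.41 on the bacterial control probe sets. The chosen probe sets had means over the 12 arrays from 6.61 to 11.03, the brightest being those of Mrpl39, Mrpl15, Mrpl51, Mrpl12 and Mrpl42. Brightness depends on the probes as well as on the RNA, so it does not rank the genes by abundance.

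The markers of the cells differed between the groups. The summed signal of 8 markers of pluripotent cells was 10007 to 10773 on BPA day8 arrays, 7968 to 12028 on NP day8 arrays, 1437 to 2573 on control day8 arrays and 15724 to 16674 on control day0 arrays. The day0 label thus stands on arrays with the highest sums of these markers. The 7 fibroblast markers tested summed to 659 to 839 on BPA day8 arrays, 499 to 859 on NP day8 arrays, 5726 to 8496 on control day8 arrays and 5664 to 7262 on control day0 arrays. Of these 7 markers, 5 were called lower with each agent against control day8, while Thy1 and S100a4 were not called. Thy1 and S100a4 had control day8 means of 2.97 and 3.09, under the background of 3.41, where a further fall is hard to measure. In control day8 against control day0, 3 were called higher and 3 lower, among the last Thy1 and S100a4. In bulk samples of this kind, fewer cells of a type and less RNA per cell cannot be told apart.

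Over control differentiation, most mitochondrial ribosomal protein genes fell. In control day8 against control day0, 50 of the 76 genes were called lower, which is 65.8%, and 2 were called higher, against 20.5% and 28.3% of all genes tested in this comparison. Among the 6419 genes whose mean was at or above that of the dimmest member, 29.6% were called lower and 31.3% higher. The median log2 difference of the 76 genes was -0.48, while that of all genes tested was 0.12, a distance of -0.60. Both control groups stood wholly apart for 53 members that were lower and 3 that were higher, against 24.2% and 32.5% of all genes tested.

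Averaged over the 76 genes, the log2 signal was 8.61 ± 0.13 in control day8 and 9.05 ± 0.07 in control day0 (SD, n = 3 each). The agent groups averaged 8.81 ± 0.03 for BPA day8 and 8.76 ± 0.07 for NP day8 (SD, n = 3 each). The highest control day8 array stood at 8.73 and the lowest control day0 array at 8.97, so the control groups did not overlap in this average. The large subunit averaged 8.65 ± 0.13 in control day8 and 9.10 ± 0.08 in control day0, and the small subunit 8.54 ± 0.13 in control day8 and 8.97 ± 0.07 in control day0 (SD, n = 3 each).

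**Figure D1:**
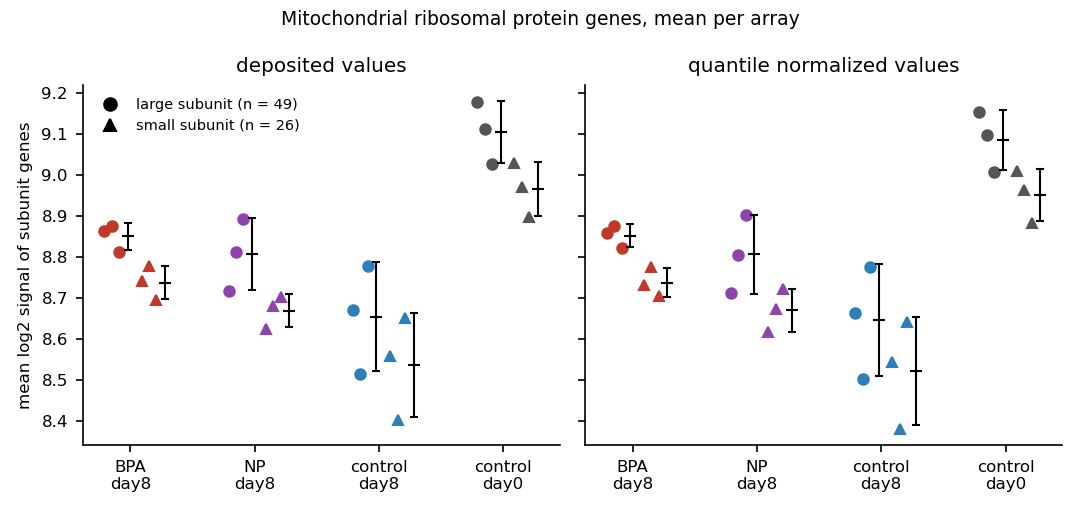
Mean log2 signal of the large subunit genes (circles) and the small subunit genes (triangles) on each array, with the mean and SD of each group of 3 arrays, for deposited values on the left and quantile normalized values on the right. The vertical axis does not start at 0. Both subunits are highest on the control day0 arrays and lowest on average on the control day8 arrays, and the panels look alike.

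The subunits did much the same. Of the 49 large subunit genes, 31 were called lower and 2 higher, with a median log2 difference of -0.56 in control day8 against control day0. Of the 26 small subunit genes, 19 were called lower and none higher, with a median of -0.44. By descent, 33 of the 47 genes with a bacterial counterpart were called lower and 2 higher, with a median of -0.52, and 17 of the 28 mitochondrion-specific genes were called lower, with a median of -0.44. The difference between these classes was not tested. Mrps36 had a log2 difference of 0.15 ± 0.13 and was not called.

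The largest fall was that of Mrpl18, a large subunit protein that in human cells has been described as a carrier of 5S rRNA. Mrpl18 had log2 signals of 9.24, 9.04 and 9.18 in control day8, against 10.47, 10.42 and 10.13 in control day0. Every control day8 array lay below every control day0 array, and the log2 difference was -1.19 ± 0.12 (adjusted p = 5.21e-05), which is 2.28-fold lower. Mrps18b, a small subunit protein related to bacterial S18, had log2 signals of 8.02, 7.87 and 8.40 in control day8, against 9.25, 9.13 and 9.12 in control day0. Its groups did not overlap either, and it was 2.10-fold lower (log2 difference -1.07 ± 0.14, adjusted p = 0.000193).

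Mrpl35, a large subunit protein with a bacterial counterpart, had log2 signals of 9.11, 8.99 and 9.06 in control day8, against 10.13, 10.13 and 9.92 in control day0. The log2 difference was -1.01 ± 0.09 (adjusted p = 2.96e-05), and these 3 genes were the only members called with a change of at least 2-fold. A second probe set of Mrpl35 was also lower (-0.92 ± 0.32), while another, with a mean of 3.61 close to the background, was higher (1.66 ± 0.58). Mrpl35 was the only member with probe sets called in both directions. With the mean of all its probe sets, limma did not call it (adjusted p = 0.787). In all, 12 members had an unchosen probe set past the filter whose difference had the opposite sign to that of the chosen one.

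Mrpl20, whose bacterial counterpart binds the large rRNA early in assembly, had log2 signals of 8.50, 8.34 and 8.61 in control day8, against 9.62, 9.54 and 9.29 in control day0 (difference -0.999 ± 0.126, adjusted p = 0.000175). Mrps25, a mitochondrion-specific protein of the small subunit, had log2 signals of 7.68, 7.59 and 7.97 in control day8, against 8.81, 8.77 and 8.61 in control day0 (difference -0.98 ± 0.11, adjusted p = 0.000102). In both genes the control day8 arrays lay wholly below the control day0 arrays. The next largest falls were those of Mrpl37 and Mrpl42, both specific to mitochondria, Mrpl47, which lies near the exit of the peptide tunnel, Mrpl1, a protein of the L1 stalk, and Mrpl36. Their log2 differences were -0.95 ± 0.22, -0.91 ± 0.14, -0.92 ± 0.16, -0.92 ± 0.18 and -0.88 ± 0.17 in that order, with adjusted p between 0.00055 and 0.00567. Without probe sets ending in _x_at, _s_at or _a_at, Mrpl1 had -0.18 ± 0.16 and was not called (adjusted p = 0.392). Of the 50 falls, 31 were at least 1.5-fold, and the smallest was a log2 difference of -0.24.

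Mrpl14 and Mrpl23 went the other way. Mrpl14, a large subunit protein at the interface between the subunits, had log2 signals of 8.14, 7.95 and 8.33 in control day8, against 7.42, 7.27 and 7.61 in control day0, a difference of 0.70 ± 0.16 (adjusted p = 0.00479). Mrpl23, a large subunit protein near the exit of the peptide tunnel, had log2 signals of 9.73, 9.66 and 9.66 in control day8, against 9.002, 8.865 and 9.372 in control day0, a difference of 0.60 ± 0.12 (adjusted p = 0.00275). In both genes every control day8 array lay above every control day0 array. Each gene is measured here by the probe set chosen for it.

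The other 24 members were not called. They are Mrpl3, Mrpl9, Mrpl10, Mrpl27, Mrpl28, Mrpl32, Mrpl38, Mrpl41, Mrpl43, Mrpl44, Mrpl48, Mrpl54, Mrpl57, Mrpl58, Mrps2, Mrps6, Mrps15, Mrps18a, Mrps18c, Mrps21, Mrps30, Mrps33, Mrps34 and Mrps36. Their log2 differences ran from -0.28 to 0.26, with 15 of them negative. Mrpl58, a peptidyl-tRNA hydrolase that became part of the large subunit, and Mrpl44, a protein with a ribonuclease III fold, are among them.

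**Figure D2:**
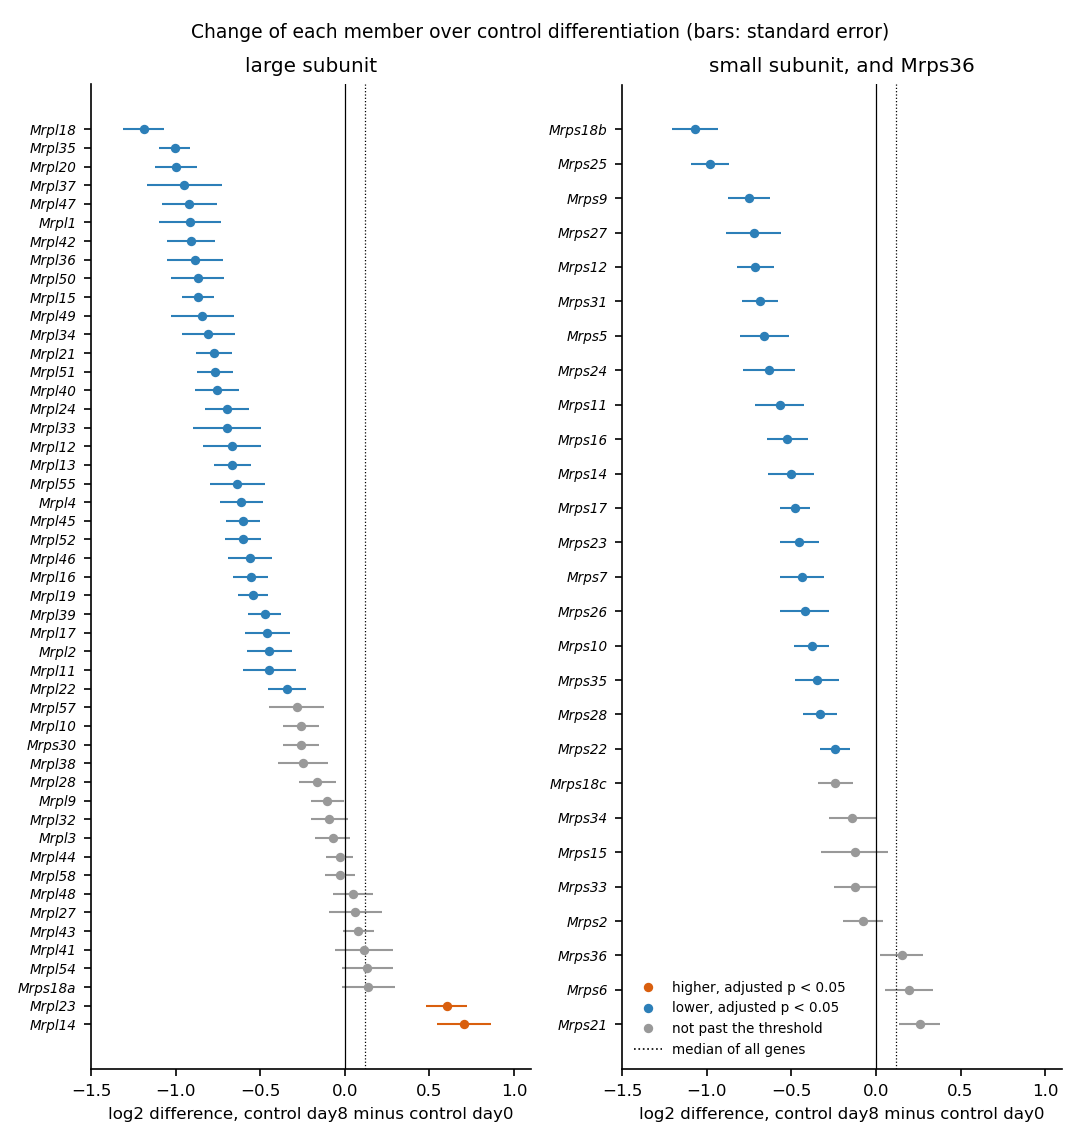
Log2 difference of each of the 76 genes, control day8 minus control day0, with its standard error, for the large subunit on the left and the small subunit with Mrps36 on the right. Blue points are called lower, orange points higher and grey points neither, and the dotted line is the median of all genes tested at 0.12. Blue points fill most of both panels, and only Mrpl14 and Mrpl23 are orange.

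Most of these calls did not depend on a single array. Of the 52 members called, 42 were called with every 1 of the 12 arrays left out in turn, among them the 12 genes named above with their differences. The other 10 were Mrpl2, Mrpl11, Mrpl17, Mrpl22, Mrpl33, Mrps7, Mrps22, Mrps26, Mrps28 and Mrps35.

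Promoters are shown for Mrpl18 and Mrps18b, which had the largest falls, for Mrps24, described with the agents, and for Mrpl14 and Mrpl23, which rose. These genes were picked by their values and do not stand for all members. The RefSeq promoter table (GRCm38.p6, 250 bases before to 50 after the start of each gene) held 73 promoters of 67 of the 76 genes. They were searched on both strands for GCATGCGC, the core letters bound by NRF1, for CCGGAAGT, a motif of the ETS family to which the nuclear factor GABP belongs, for AAGATGGC, a motif of YY1, and for the E-box CACGTG. Capitals mark the matches, and each sequence runs 5′ to 3′ along the strand of its gene.
Mrpl18: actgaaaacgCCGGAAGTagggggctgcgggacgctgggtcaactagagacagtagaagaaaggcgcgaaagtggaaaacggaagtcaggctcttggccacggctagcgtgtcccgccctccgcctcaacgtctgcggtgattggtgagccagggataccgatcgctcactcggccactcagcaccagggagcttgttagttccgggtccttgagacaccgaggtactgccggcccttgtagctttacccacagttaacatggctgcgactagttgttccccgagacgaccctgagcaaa
Mrps18b: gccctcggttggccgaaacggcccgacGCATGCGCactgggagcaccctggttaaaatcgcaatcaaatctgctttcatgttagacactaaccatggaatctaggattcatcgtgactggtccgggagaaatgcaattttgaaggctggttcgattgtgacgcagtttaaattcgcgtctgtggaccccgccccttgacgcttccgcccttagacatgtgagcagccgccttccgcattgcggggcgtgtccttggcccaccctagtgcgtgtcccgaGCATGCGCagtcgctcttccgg
Mrps24: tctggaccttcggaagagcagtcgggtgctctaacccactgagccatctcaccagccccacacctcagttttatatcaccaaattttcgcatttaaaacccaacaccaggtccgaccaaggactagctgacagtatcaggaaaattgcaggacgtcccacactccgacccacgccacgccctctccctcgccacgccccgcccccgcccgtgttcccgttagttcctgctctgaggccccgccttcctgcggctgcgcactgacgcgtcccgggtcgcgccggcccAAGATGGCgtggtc
Mrpl14: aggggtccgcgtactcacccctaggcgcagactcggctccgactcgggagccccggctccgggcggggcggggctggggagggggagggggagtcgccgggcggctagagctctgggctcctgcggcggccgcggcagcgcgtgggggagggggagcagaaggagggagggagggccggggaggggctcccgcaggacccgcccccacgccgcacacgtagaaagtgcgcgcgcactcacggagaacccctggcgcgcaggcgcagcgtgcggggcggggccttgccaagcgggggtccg
Mrpl23: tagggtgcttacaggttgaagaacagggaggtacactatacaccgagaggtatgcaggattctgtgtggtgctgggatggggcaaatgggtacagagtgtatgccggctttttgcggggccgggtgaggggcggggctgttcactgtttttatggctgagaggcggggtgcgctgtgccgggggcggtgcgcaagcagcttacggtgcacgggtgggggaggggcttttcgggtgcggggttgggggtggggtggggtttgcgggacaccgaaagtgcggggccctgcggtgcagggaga
The window of Mrpl18 is chr17:12916042-12916341 on the minus strand and holds an ETS match. That of Mrps18b is chr17:35916391-35916690 on the minus strand and holds 2 NRF1 matches, 1 on each side of the start. That of Mrps24, described with the agents, is chr11:5707652-5707951 on the minus strand and holds a YY1 match after the start. Those of Mrpl14 (chr17:45686099-45686398) and Mrpl23 (chr7:142532782-142533081) are on the plus strand and held no match to these letters. Of the next largest falls, whose windows are not shown, Mrpl35 held a YY1 match, Mrpl20 an E-box alone and Mrps25 no match.

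Over all member promoters, NRF1 letters were found in 8 of 73 (10.96%), against 4.84% of the 13490 promoters of the genes tested. ETS letters were found in 12 of 73 (16.4%), against 7.19% of the promoters of the genes tested, and YY1 letters in 12 of 73 (16.4%), against 4.003%. At least 1 of the NRF1, ETS and YY1 motifs was found in 29 of 73 member promoters (39.7%), against 14.97% in the genes tested and 8.83% in the whole table of 32851 promoters. The E-box was in 7 of 73 (9.59%), against 9.62% in the genes tested. Several of these 7 promoters belong to 1 gene, Mrpl2. Counted by gene, the E-box was in 5 of 67 members, against 1211 of 10536 genes tested. No matches of different motifs overlapped in the member promoters.

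At least 1 of the NRF1, ETS and YY1 motifs was in 20 of 47 promoters (42.6%) of genes called lower and in 9 of 24 promoters (37.5%) of genes not called. Median GC content was 58.7% in member promoters and 60.7% in those of the genes tested. A match in these windows describes their letters and does not show binding.

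With quantile normalization, which gives every array the same distribution of values, the picture of control differentiation changed little. It called 47 members lower and 2 higher in control day8 against control day0, against 22.6% and 23.9% of all genes, with a median of -0.46, where the deposited values gave 50 and 2 with a median of -0.48. Of the genes called lower, 45 were the same. Mrpl11, Mrpl17, Mrpl22, Mrps22 and Mrps35 were called with deposited values alone, and Mrpl10 and Mrpl38 with quantile normalized values alone. No member was called in opposite directions.

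The scaling mattered more for the genes around them. The median of all genes tested moved to 0.01 with quantile normalization, from 0.12 with deposited values, and the share of calls that were higher moved to 51.5% of all calls, from 58.0%. Relative to the median of all genes, the median of the members was -0.47 with quantile normalization and -0.60 with deposited values. Centring each array on its median called 53 members lower and 2 higher, against 22.6% and 22.5% of all genes. With quantile normalization the difference of a member moved by between -0.24 and 0.19, with a median of 0.02.

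**Figure D3:**
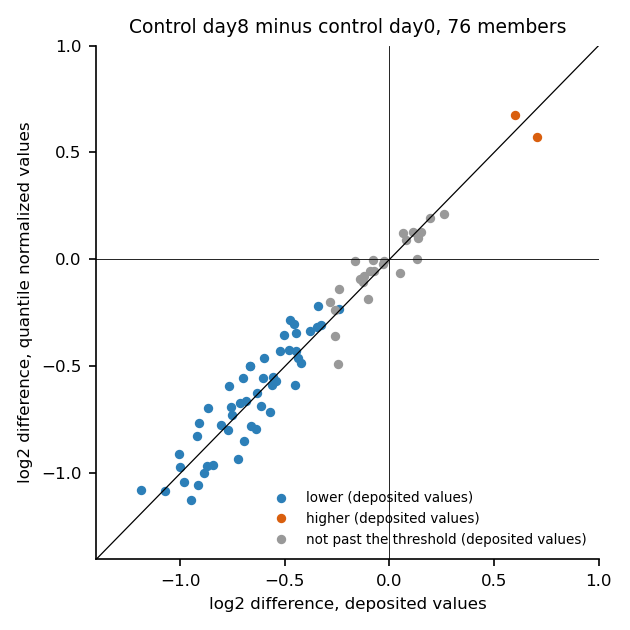
Log2 difference of each of the 76 genes in control day8 minus control day0, with deposited values on the horizontal axis and quantile normalized values on the vertical axis, coloured by the call with deposited values. The points lie along the line of equality, which is drawn, and both genes called higher stay above 0 on both axes.

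Both agent groups were compared with control day8, and those comparisons share the control day8 arrays. The comparison of control day8 with control day0 uses these arrays too. With BPA, 9 of the 76 genes were called higher and none lower by limma, which is 11.8%, against 12% of all genes tested called higher and 10.2% called lower in this comparison. Among genes at least as bright as the dimmest member, 16.1% were called higher. The share of members called was thus close to the background. The median log2 difference of the members was 0.18, and that of all genes tested was 0.04. Of the 76 member differences 63 were positive, against 6968 of the 13067 differences of all genes tested. The arrays did not overlap for 32 members that were higher and 2 that were lower, against 22.5% and 19.2% of all genes tested. At an unadjusted p under 0.05 by limma, 27 of the 76 members differed, against 4651 of the 13067 genes tested.

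The largest difference with BPA was that of Mrps24, the counterpart of a bacterial protein that lines the entry of the mRNA channel. Mrps24 had log2 signals of 9.52, 9.57 and 9.56 in BPA day8, against 8.42, 8.34 and 8.89 in control day8. The groups did not overlap, and it was 2.01-fold higher (log2 difference 1.004 ± 0.155, adjusted p = 0.00224). A second probe set of Mrps24 gave 0.79 ± 0.13.

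Mrpl15, a large subunit protein with a bacterial counterpart, had log2 signals of 10.86, 10.92 and 10.88 in BPA day8, against 10.19, 10.05 and 10.31 in control day8, a difference of 0.70 ± 0.09 (adjusted p = 0.0012). Mrps25 had 8.31, 8.35 and 8.24 in BPA day8, against 7.68, 7.59 and 7.97 in control day8, a difference of 0.56 ± 0.11 (adjusted p = 0.00798). In both genes all BPA day8 arrays lay above all control day8 arrays. These genes and Mrps24 were the 3 members called with every 1 of the 12 arrays left out in turn. Without probe sets ending in _x_at, _s_at or _a_at, Mrpl15 was not called by limma (adjusted p = 0.0624).

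Mrps18b rose with BPA to 8.54, 8.67 and 8.62, against 8.02, 7.87 and 8.40 in control day8 (log2 difference 0.52 ± 0.14, adjusted p = 0.0249). Mrps5, whose bacterial counterpart also lies at the mRNA entry, had 8.06, 7.79 and 8.03 in BPA day8, against 7.50, 7.18 and 7.68 in control day8 (0.51 ± 0.15, adjusted p = 0.0334). Neither gene overlapped between the groups. Mrpl24, Mrpl42, Mrpl51 and Mrpl35 had log2 differences of 0.49 ± 0.13, 0.47 ± 0.14, 0.37 ± 0.11 and 0.34 ± 0.09, with adjusted p between 0.0241 and 0.0398. Leaving out 1 array ended the call of each of these 6 genes for at least 1 choice of array, with adjusted p up to 0.119. With the mean of all probe sets of a gene, Mrps5 had 0.08 ± 0.14 (adjusted p = 0.740), Mrps25 0.31 ± 0.24 (adjusted p = 0.431) and Mrpl35 -0.23 ± 0.23 (adjusted p = 0.549), and neither they nor Mrpl42 and Mrpl51 were called.

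The count of 9 depended on single arrays and on settings. Leaving out control day8 replicate 1 gave 3, control day8 replicate 2 or BPA day8 replicate 2 gave 4, BPA day8 replicate 3 gave 5 and control day8 replicate 3 gave 15. With quantile normalization, where 13.3% of all genes were called higher, it was 13, the same 9 with Mrpl1, Mrpl38, Mrpl45 and Mrps31, while fitting only the compared groups gave 4.

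With NP, 5 of the 76 genes were called higher and none lower by limma, which is 6.58%, against 7.9% of all genes tested called higher and 6.28% called lower, and 10.7% called higher among genes at least as bright as the dimmest member. As with BPA, the share of members called was close to the background. The median log2 difference of the members was 0.13, and that of all genes tested was 0.01. Of the 76 member differences 57 were positive, against 6677 of the 13067 differences of all genes tested. The arrays did not overlap for 16 members that were higher and 3 that were lower, against 17.7% and 17.1% of all genes tested. At an unadjusted p under 0.05 by limma, 14 of the 76 members differed, against 3741 of the 13067 genes tested.

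Mrps24 had log2 signals of 9.12, 9.19 and 9.34 in NP day8, against 8.42, 8.34 and 8.89 in control day8, a difference of 0.67 ± 0.15 (adjusted p = 0.0213). Mrpl15 had 10.60, 10.79 and 10.77 in NP day8, against 10.19, 10.05 and 10.31 in control day8, a difference of 0.53 ± 0.09 (adjusted p = 0.00716). In both genes all NP day8 arrays were above all control day8 arrays. The 6 probe sets of Mrpl15 past the filter were all higher in both agent groups, by log2 differences of 0.24 to 0.83 with NP and 0.63 to 0.89 with BPA. All were lower in control day8 against control day0, from -1.25 to -0.22. Both directions rest on the same control day8 arrays, and the probe sets were read on the same arrays, so these differences are not independent.

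Mrps9, whose bacterial counterpart reaches with its tail toward the peptidyl site, had 8.94, 9.09 and 9.01 in NP day8, against 8.47, 8.83 and 8.42 in control day8, a difference of 0.44 ± 0.12 (adjusted p = 0.0448). Mrpl51, a mitochondrion-specific protein, had 10.44, 10.43 and 10.69 in NP day8, against 10.12, 10.01 and 10.23 in control day8, a difference of 0.40 ± 0.11 (adjusted p = 0.0349). Mrps25 had 8.07, 8.16 and 8.20 in NP day8, against 7.68, 7.59 and 7.97 in control day8, a difference of 0.40 ± 0.11 (adjusted p = 0.045). None of these 3 genes overlapped between the groups. Without probe sets ending in _x_at, _s_at or _a_at, Mrps9 had 0.12 ± 0.13 (adjusted p = 0.609) and Mrpl51 0.14 ± 0.25 (adjusted p = 0.781), and with the mean of all probe sets of a gene Mrps25 had -0.03 ± 0.24 (adjusted p = 0.967).

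Mrpl15 was the only member whose NP call held with every 1 of the 12 arrays left out. That call was lost without probe sets ending in _x_at, _s_at or _a_at. In place of 5, leaving out NP day8 replicate 2, NP day8 replicate 3 or control day8 replicate 1 gave 1, BPA day8 replicate 2, control day8 replicate 2 or control day0 replicate 2 gave 2, BPA day8 replicate 1, BPA day8 replicate 3 or control day0 replicate 1 gave 3, and control day8 replicate 3 gave 9. Quantile normalization called the same 5 genes, with 8.51% of all genes called higher, and fitting only the compared groups called none, with 9 members at an unadjusted p under 0.05.

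The genes that had changed most over control differentiation did not all follow. Mrpl18 had 9.27, 9.31 and 9.09 in BPA day8 and 9.16, 9.31 and 9.40 in NP day8, against 9.24, 9.04 and 9.18 in control day8, with differences of 0.07 ± 0.12 for BPA and 0.14 ± 0.12 for NP. Mrpl20 had 8.40, 8.62 and 8.34 in BPA day8 and 8.65, 8.64 and 8.84 in NP day8, against 8.50, 8.34 and 8.61 in control day8, with differences of -0.03 ± 0.13 for BPA and 0.23 ± 0.13 for NP. Neither gene was called with either agent. Mrpl14 had 7.86, 7.74 and 7.34 in BPA day8 and 7.94, 7.83 and 7.81 in NP day8, against 8.14, 7.95 and 8.33 in control day8. Its differences of -0.49 ± 0.16 for BPA (adjusted p = 0.0514) and -0.28 ± 0.16 for NP (adjusted p = 0.282) were not called.

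**Figure D4:**
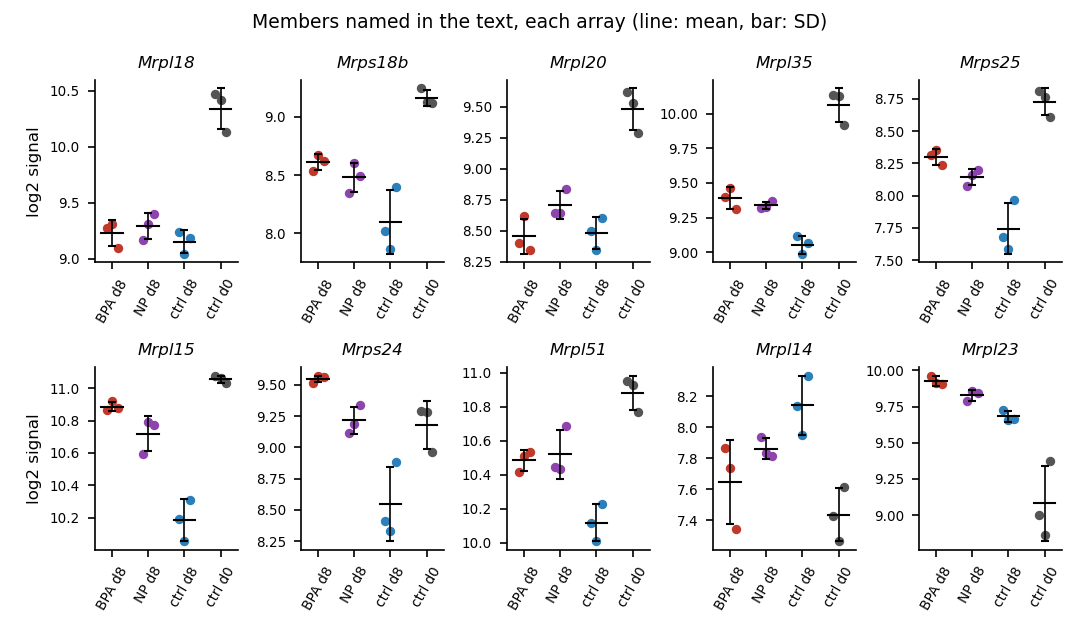
Log2 signal of 10 genes described in the text on each array, with the mean and SD of each group of 3 arrays. Each gene has its own vertical axis, which does not start at 0. Mrpl18 and Mrpl20 lie near the control day8 level in both agent groups, and Mrps24 and Mrpl15 lie above it.

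The ratio of the 3′ to the 5′ probe sets of actin, a sign of RNA quality, moved with the agents. Its log2 value was 1.52 to 1.72 on BPA day8 arrays, 1.46 to 1.64 on NP day8 arrays, 1.27 to 1.42 on control day8 arrays and 1.22 to 1.36 on control day0 arrays. The agent arrays thus lay above all control arrays, while the same ratio for Gapdh overlapped between the groups, at 0.22 to 0.44 with BPA, 0.31 to 0.35 with NP, 0.23 to 0.31 in control day8 and 0.20 to 0.35 in control day0. The part of this ratio, and of the cell type markers given above, in the differences between the agent groups and control day8 was not tested.

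The agents were also set against each other. In NP day8 against BPA day8, limma called 0 of the 76 genes, and it called 0.00765% of all genes tested. The median log2 difference of the members was -0.05, with a range from -0.33 to 0.25, and that of all genes tested was -0.02. The arrays did not overlap for 1 member that was higher and 13 that were lower, against 7.21% and 9.74% of all genes tested. At an unadjusted p under 0.05 by limma there was 1 member, against 1095 of the 13067 genes tested. It was Mrpl10, a protein at the base of the stalk that recruits translation factors.

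Mrpl10 had log2 signals of 7.64, 7.81 and 7.78 in NP day8, against 8.03, 7.95 and 8.01 in BPA day8, a difference of -0.25 with a 95% interval from -0.49 to -0.02 (adjusted p = 0.573). The NP day8 arrays all lay lower. Mrps24 had a difference of -0.33 with an interval from -0.68 to 0.01, and Mrpl20 one of 0.25 with an interval from -0.03 to 0.54. Mrps28 and Mrps16 had differences of -0.19 and -0.23. Over the 76 genes the 95% intervals reached no further than -0.68 and 0.57, and the missing calls do not show that the agents act alike.

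Set against control day0, both agent groups had fewer members called than control day8 had, and the difference between these counts was not tested. The share of all genes tested that was called was also smaller with the agents. In control day8 it was 20.5% lower and 28.3% higher. With BPA, 25 members were called lower and 1 higher, against 11.9% and 21.7% of all genes tested, with a median of -0.23 where all genes had 0.14. With NP, 33 were called lower and 1 higher, against 11.9% and 20.2% of all genes tested, with a median of -0.32 where all genes had 0.10. These comparisons and that of control day8 share the control day0 arrays. The arrays did not overlap with control day0 for 42 lower and 5 higher members with BPA, against 19.4% and 30% of all genes tested, and for 47 lower and 3 higher members with NP, against 19.5% and 28%.

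By subunit, 16 of the 49 large subunit genes and 9 of the 26 small subunit genes were lower with BPA than in control day0, and 21 and 12 with NP. The gene called higher was Mrpl23 with both agents. It had 9.96, 9.92 and 9.90 in BPA day8 and 9.79, 9.86 and 9.84 in NP day8, against 9.002, 8.865 and 9.372 in control day0, with log2 differences of 0.85 ± 0.12 (adjusted p = 0.000845) and 0.75 ± 0.12 (adjusted p = 0.00171). Every array of either agent lay above every control day0 array.

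With each agent the largest falls were those of Mrpl18 and Mrpl20. The log2 difference of Mrpl18 was -1.12 ± 0.12 with BPA and -1.05 ± 0.12 with NP, and that of Mrpl20 -1.03 ± 0.13 with BPA and -0.77 ± 0.13 with NP. Mrps27, a pentatricopeptide repeat protein of the small subunit, had 6.27, 6.68 and 6.22 in BPA day8 and 6.56, 6.12 and 6.61 in NP day8, against 7.32, 7.05 and 7.24 in control day0. It lay lower on every agent array, with differences of -0.82 ± 0.16 with BPA and -0.77 ± 0.16 with NP. Mrpl34 and Mrpl50 both had -0.71 ± 0.16 with BPA, and with NP the falls of Mrps12, a protein of the decoding centre, and Mrpl35 were -0.75 ± 0.11 and -0.72 ± 0.09. With the mean of all probe sets of a gene, limma called neither Mrpl34 with BPA (adjusted p = 0.372) nor Mrpl35 with NP. Mrpl35 was also not called with NP without probe sets ending in _x_at, _s_at or _a_at. Its difference with NP was as small as -0.04 under the alternatives run.

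Against control day0, neither Mrps24 nor Mrpl15 was called with BPA, although the BPA day8 arrays of Mrps24 all lay above those of control day0. Mrps24 had 9.52, 9.57 and 9.56 in BPA day8 and 9.12, 9.19 and 9.34 in NP day8, against 9.29, 9.28 and 8.96 in control day0, with differences of 0.37 ± 0.15 for BPA (adjusted p = 0.0938) and 0.04 ± 0.15 for NP (adjusted p = 0.883). Mrpl15 had a difference of -0.17 ± 0.09 for BPA (adjusted p = 0.203), and it was called lower with NP at -0.34 ± 0.09 (adjusted p = 0.0227). That NP call was lost with quantile normalization (-0.23 ± 0.09, adjusted p = 0.079), and its sign turned without probe sets ending in _x_at, _s_at or _a_at. Misses of the threshold do not show that the groups were the same.

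With quantile normalization 22 members were lower with BPA and 29 with NP against control day0, against 12.4% of all genes with either agent. Mrpl23 was higher with both, against 17.7% of all genes with BPA and 16.7% with NP. The count of 26 with BPA was 16 without control day0 replicate 1 or control day0 replicate 2 and 17 without BPA day8 replicate 3, and the count of 34 with NP was 19 without control day0 replicate 1 and 17 without control day0 replicate 2 or NP day8 replicate 1.

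**Figure D5:**
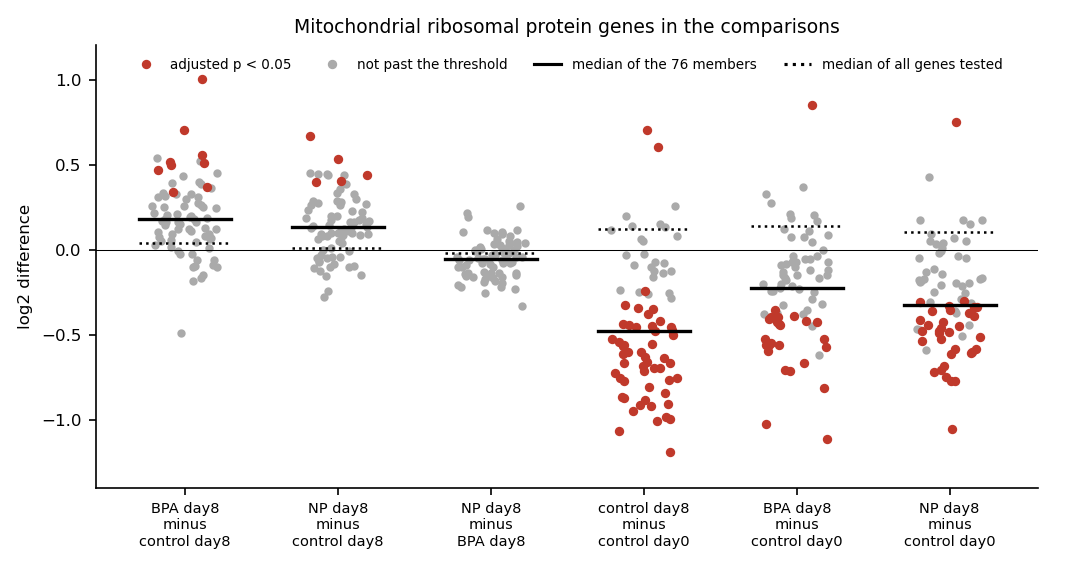
Log2 differences of the 76 genes in the comparisons, each point a gene, red where its adjusted p is under 0.05 and grey otherwise, with the median of the members as a solid line and the median of all genes tested as a dotted line. The cloud lies lowest in control day8 minus control day0, with a median of -0.48, and around 0 in NP day8 minus BPA day8.

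Genes that work with the mitochondrial ribosome were set beside it. Of 4 mitoribosomal proteins with other symbols that were tested, 2 were called lower in control day8 against control day0 and none higher: Ptcd3 with -1.33 ± 0.23 and Gadd45gip1 with -0.94 ± 0.17. Of 23 factors for assembly of the ribosome and modification of its rRNA, 11 were lower and none higher, with a median of -0.34, and with quantile normalization 12 were lower, with a median of -0.53. Of all genes tested, 20.5% were called lower and 28.3% higher in this comparison. The largest were Mpv17l2, an assembly protein of the inner membrane, with -1.39 ± 0.17, and Fastkd2, an RNA-binding protein needed for the large subunit, with -1.14 ± 0.13. Fastkd2 had 8.08, 8.01 and 8.28 in control day8, against 9.32, 9.33 and 9.13 in control day0, so the groups lay apart.

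Of 14 translation factors and mRNA handling proteins, 10 were lower and 2 higher in control day8 against control day0, with a median of -0.51. Of all genes tested, 20.5% were lower and 28.3% higher. The elongation factor Gfm1 had 7.43, 7.54 and 7.54 in control day8, against 8.74, 8.78 and 8.58 in control day0, a difference of -1.19 ± 0.10 (adjusted p = 2.06e-05). The arrays of Gfm1 did not overlap. Cdk5rap1, which modifies mitochondrial tRNAs, had -1.05 ± 0.20. The release factor Mtrf1l (1.14 ± 0.21) and Oxa1l (0.41 ± 0.12), which inserts new proteins into the inner membrane, were higher; with quantile normalization 1 gene of this list was called higher.

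Of 19 genes for the supply of mitochondrial aminoacyl-tRNA, 4 were lower and none higher, with a median of -0.13. Of all genes tested, 20.5% were called lower and 28.3% higher, so the share lower was close to that of all genes. With quantile normalization 6 of the 19 were lower, against 22.6% of all genes, with a median of -0.36. Cars2, the cysteinyl-tRNA synthetase, had -1.06 ± 0.24, while Aars2 was called lower with a control day8 mean of 2.58, under the background of 3.41. Of 16 genes for transcription and upkeep of mitochondrial DNA and its regulators, 8 were lower and 1 higher, with a median of -0.46. Gabpa, the DNA-binding part of GABP, had -1.05 ± 0.16 and Tfb2m, which starts mitochondrial transcription, -0.87 ± 0.14, while Polg, the mitochondrial DNA polymerase, was higher by 1.47 ± 0.16.

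ND5, a subunit of complex I encoded in mitochondrial DNA and translated by this ribosome, was the only mitochondrially encoded gene tested. ND5 had log2 signals of 9.77, 9.63 and 9.75 in control day8, against 10.82, 10.84 and 10.89 in control day0, a difference of -1.13 ± 0.16 (adjusted p = 0.000322). The groups did not overlap. Of 44 cytosolic ribosomal protein genes tested, 9 were called lower and 1 higher, against 20.5% and 28.3% of all genes, with a median of -0.12. The share called lower was thus close to that of all genes. With quantile normalization 8 were lower and 2 higher, against 22.6% and 23.9% of all genes, with a median of -0.02.

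With BPA against control day8, 5 of the 23 assembly genes and 5 of the 14 translation factors were higher and none lower, with medians of 0.20 and 0.36, where 12% of all genes tested were called higher and 10.2% lower. Mpv17l2 had 0.73 ± 0.17, Tfb1m, an rRNA methyltransferase, 0.62 ± 0.19, Gfm1 0.72 ± 0.10 and the elongation factor Tsfm 0.66 ± 0.13. Of the aminoacyl-tRNA genes 2 were higher and 1 lower, of the mitochondrial DNA genes 2 were higher (Tefm with 0.62 ± 0.16 and Gabpa with 0.62 ± 0.16), and of the cytosolic ribosomal protein genes 4 were higher. With quantile normalization 2 aminoacyl-tRNA genes were higher and none lower, 3 mitochondrial DNA genes were higher, and 3 cytosolic ribosomal protein genes were higher.

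With NP against control day8, 2 assembly genes (Fastkd2 with 0.54 ± 0.13 and Gtpbp10 with 0.52 ± 0.15) and 4 translation factors were higher, among them Lrpprc, which stabilises mitochondrial mRNAs, with 0.60 ± 0.12 and Tsfm with 0.55 ± 0.13. Of the cytosolic ribosomal protein genes 4 were higher, with a median of 0.19 (0.02 with quantile normalization), and of the aminoacyl-tRNA genes 1 was lower, Gatc with -0.46 ± 0.13. Limma called none of the mitochondrial DNA genes, where Tefm had the lowest adjusted p, 0.0685. With quantile normalization no aminoacyl-tRNA gene was called, and 1 of the mitochondrial DNA genes was called higher. Of all genes tested, 7.9% were called higher and 6.28% lower. ND5 had 9.92, 10.38 and 10.55 in NP day8 and 10.27, 9.93 and 10.22 in BPA day8, against 9.77, 9.63 and 9.75 in control day8. It was called higher with NP (0.57 ± 0.16, adjusted p = 0.043), and with BPA its difference of 0.42 ± 0.16 was not called (adjusted p = 0.088). With quantile normalization ND5 was called with neither agent.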

How the data were processed

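Total RNA of 4 groups, with 3 arrays each, was hybridised. The authors deposited 1 log2 signal for every probe set, computed with MAS5 per the submitters' processing notes; its version and scaling target are not given in the sources used here. The back-transformed signals of every array had a trimmed mean of 100, so the arrays had been scaled to a common level. No detection calls were used, and precision is limited by how many arrays there are.

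Of 45037 non-control probe sets, the 27023 with the highest means over the 12 arrays (60%) were kept, named by the platform's gene table where it gave 1 gene, and reduced to the brightest probe set per gene (13067 genes). Group means were fitted to the values as deposited, with no pseudocount, by limma 3.58.1 in R 4.3.3 (degrees of freedom: 8 residual, 1.57 prior). All tests are 2-sided, with Benjamini-Hochberg adjustment over all genes tested per comparison and a threshold of 0.05. The alternatives were quantile normalization, median centring, a pseudocount of 16, other filters and choices of probe set, another variance prior, the replicate number as a block, a fit of only the compared groups and each array left out in turn. The fit was also run on simulated data with independent genes and no difference in scale between arrays. That run does not bear on the choice of scaling.

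The text names, per comparison, the 10 largest rises and falls among members called (5 for an agent against control day0), or all of them and the 5 smallest p-values where fewer than 10 were called, the 5 brightest members, and up to 2 members of each related list per direction. Mrpl58, Mrpl44 and Mrps36, the values of named genes in other comparisons, and Mrpl14 and Mrpl20 with the agents were added after the values were seen. The members, lists, classes and motifs were chosen with earlier results of these data known. Background was the highest value of 3 TrpnX bacterial control probe sets. Promoters were searched in Python 3.11.15, and figures were drawn with matplotlib 3.10.9. Markers of visceral endoderm, heart muscle and endothelium were tested as checks of the cells (sums in the closing section).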

Additional observations from a re-analysis of the deposited data

How the results depend on the processing

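In control day8 against control day0, 37 to 55 members were called under the alternatives run, and 42 to 52 with 1 array left out. In BPA day8 against control day8, 9 members called became 4 with no filter, 18 with the top 40% of probe sets, 4 with the mean of the probe sets, 3 without probe sets ending in _x_at, _s_at or _a_at, 4 with only the compared groups and 21 with a trended and robust prior, and 3 to 15 with 1 array left out. In NP day8 against control day8, 5 became 2 with no filter, 2 with the mean of the probe sets, 0 without the _x_at, _s_at and _a_at probe sets (7 at an unadjusted p under 0.05 by limma), 0 with only the compared groups (9 at an unadjusted p under 0.05) and 10 with the trended prior, and 1 to 9 with 1 array left out. Without the _x_at, _s_at and _a_at probe sets, 3 of the 9 with BPA lost the call and 3 were not measured. Of the 5 with NP, 4 lost the call and 1 was not measured. In NP day8 against control day0, 34 became 22 with no filter and 21 without the _x_at, _s_at and _a_at probe sets, which left 62 members measured, and 17 to 38 with 1 array left out. In BPA day8 against control day0, 26 became 16 to 29 with 1 array left out. NP day8 against BPA day8 gave 0 under each alternative run, with 0 to 4 members at an unadjusted p under 0.05 by limma. With the mean of the probe sets, Mrpl35 turned to -0.23 with BPA and Mrps25 to -0.025 with NP against control day8. Under the same setting the sign of Mrpl33 turned in control day8 against control day0. Without the _x_at, _s_at and _a_at probe sets, the signs of Mrpl51 with BPA and Mrpl15 with NP turned against control day0. The cause of these changes was not tested. For most of these alternatives the share of all genes called is not given. A change of the members alone thus cannot be told from a change in all calls.

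Same-numbered arrays did not deviate together: over 18 pairs the correlation of their deviations from the group means was -0.01 to 0.08. With the replicate number as a block, 49 members were called in control day8 against control day0, 7 in BPA day8 and 2 in NP day8 against control day8, and 23 in BPA day8 and 30 in NP day8 against control day0. Low signals limit none of the chosen probe sets, which lay above the background on all arrays.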

Other observations

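Markers of other cells also differed between the groups. The summed signal of 8 visceral endoderm markers was 6997 to 10020 on BPA day8 arrays, 11742 to 12959 on NP day8 arrays, 7025 to 13603 on control day8 arrays and 114 to 139 on control day0 arrays, where Afp and Ttr were under the background. That of 8 heart muscle markers was 390 to 634 with BPA, 289 to 1895 with NP, 3545 to 5543 in control day8 and 125 to 149 in control day0, where Tnnt2 and Tnni1 were under the background. That of 7 endothelial markers was 257 to 317 with BPA, 259 to 333 with NP, 666 to 752 in control day8 and 138 to 157 in control day0, where Cdh5 and Emcn were under the background. Their part in the values of the mitochondrial ribosomal protein genes was not tested.

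Mrpl23, higher over control differentiation, lies in gene order (RefSeq, GRCm38.p6) near H19 and Igf2, an imprinted pair; this was looked up after its values were seen. H19 was not among the genes tested. Igf2, a growth factor gene, had a log2 difference of 5.32 ± 0.35 in control day8 against control day0 (adjusted p = 7.23e-06, limma). Lsp1, on the other side of Mrpl23, had 1.04 ± 0.41 (adjusted p = 0.0629, limma). Near Mrpl14, Tmem63b had 0.32 ± 0.22 (adjusted p = 0.261), and Mymx, a muscle fusion gene, had -5.24 ± 0.47 (adjusted p = 2.77e-05). On the other side of Mrpl14, 1600014C23Rik had -1.48 ± 0.83 (adjusted p = 0.173, limma).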
